A study of Mus musculus with 6 samples.

Results

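The 46 genes described here encode the machinery of mitosis: its kinases and cyclins, the proteins that condense and untangle chromosomes, the kinetochore and its checkpoint, the motors and other proteins of the spindle, and the factors that split the cell. They were taken by name, with earlier results of these data known, and all 46 had a row among the 49585 genes of the deposited heart table. The hearts of 8- or 9-week-old males gave RNA that was freed of ribosomal RNA and sequenced as 3 libraries from ground controls at 1 g (GC1 to GC3) and 3 from partial gravity at 0.167 g (PG1 to PG3). The partial gravity mice lived on the floor of a cage that was spun at 31 rpm in a centrifuge of 15 cm radius aboard the International Space Station, and the ground mice lived in the conditions of the station without the flight. The strain is named only for the ground controls (C57BL/6J), no library is tied to a mission or to 1 mouse, and a flight group at 1 g is not among the libraries used, so gravity and the rest of spaceflight cannot be told apart.

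A cell enters mitosis when the kinase Cdk1, bound to cyclin A or B, is activated, and the transcription factor Foxm1 drives many of the genes that this step needs. Condensins and topoisomerase II compact the chromosomes, kinetochores tie them to the spindle, and the anaphase-promoting complex releases the sister chromatids and destroys the cyclins. Most of these RNAs are made only in late S phase, G2 and mitosis, so they are low in tissues whose cells rarely divide. In the adult mouse heart few myocytes divide, and most dividing cells are endothelial cells, fibroblasts and leukocytes.

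The summed reads of these 46 members were lower in partial gravity. Among the 23 members with enough reads to be tested, 14 fell and 0 rose. Those that fell included the proliferation marker Mki67, topoisomerase Top2a, spindle gene Aspm, cytokinesis gene Iqgap3, cyclin gene Ccna2 and the factor Foxm1. The genes just named were 4.20-fold to 7.65-fold lower, and the 14 ran down to 1.36-fold lower (Ncapd2). Lower calls made up 2.21% of the 12258 genes tested and higher calls 1.56%. Scaling by library totals turned the split over all genes from 271 lower and 191 higher to 193 and 288, and left the members at 14 lower and 0 higher. No member had an unadjusted p under 0.05 toward higher. DESeq2 without independent filtering called 7 members lower and 0 higher (1.34% and 0.995% of all genes), and limma voom called 14 and 0 (2.15% and 1.41%). The median log2 fold change of the 23 was -1.20, against 0.00067 over all tested genes. A gene was tested if it reached about 10 reads in 3 libraries, and 9 of the 14 reached that level in no partial gravity library. Top2a and Anln reached it in 1 and 2 partial gravity libraries, so they also needed the ground libraries to be tested. Only Mki67, Ncapd2 and Ncapg2 reached it in all 6 libraries. The median and the split of 14 to 0 among the tested members are thus tilted toward those high on the ground. Aspm, Iqgap3, Ccna2 and Foxm1 are among the 9 that reached that level in no partial gravity library. Values per library stand in the order GC1, GC2, GC3 against PG1, PG2, PG3. Where no tool is named, an adjusted p comes from the quasi-likelihood test of edgeR. Levels are CPM, read counts relative to library size scaled by the TMM method, and errors are SD over 3 libraries.

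All 46 members together can be read without that filter. Their reads summed to 1148, 1551 and 1377 in GC1 to GC3 and to 868, 789 and 1064 in PG1 to PG3, although total counts were 6461213 to 7209653 per ground library and 7095862 to 8271553 per partial gravity library. In CPM the sums were 180, 219 and 202 against 108, 112 and 128, a mean of 200.05 ± 19.5 against 116 ± 10.6, and the groups did not overlap. The mean CPM was lower in partial gravity for 44 of the 46, where 51.1% of all genes with any read had a lower mean. Every partial gravity library lay below every ground library for 37 of the 46, a pattern found in 8.74% of genes with any read, and the reverse was seen for 0 (7.35% of those genes). GC2 was the highest of the 6 libraries for 24 members. A read total of a whole heart does not separate fewer cycling cells from less mitotic RNA in each of them.

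**Figure D1:**
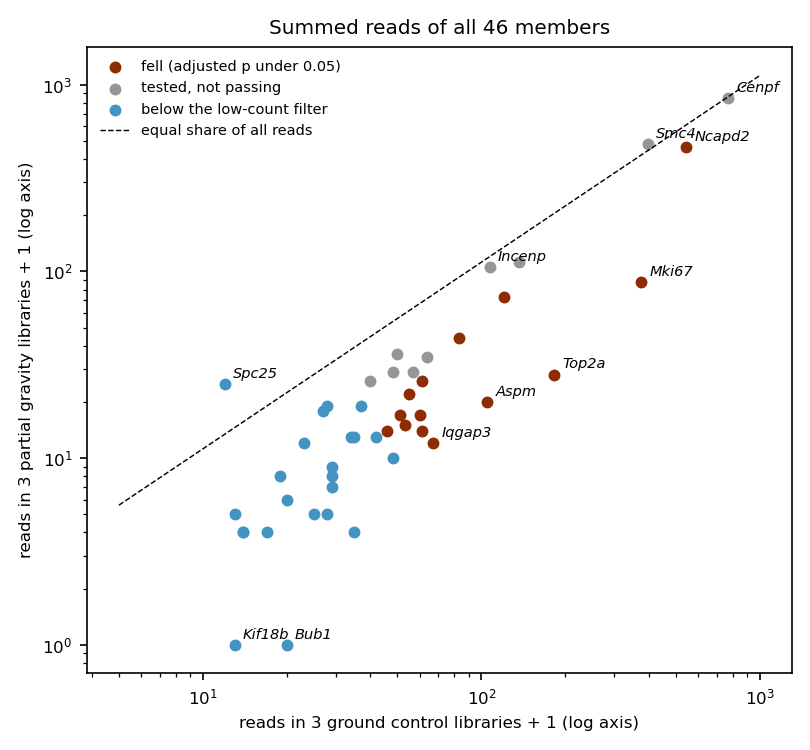
Reads of each of the 46 members summed over 3 ground control libraries (x axis, plus 1) and over 3 partial gravity libraries (y axis, plus 1), both on log axes, with a dashed line where a gene takes the same share of all reads in both groups. Nearly all points lie below the line, Cenpf and Smc4 lie close to it, and Spc25 lies above it.

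The members lie on 18 chromosomes. Promoter windows, 250 bases before to 50 after the annotated start, were at hand for 38 of the 46 (RefSeq, GRCm38.p6; the first window listed for a gene). Genes of late cell cycle phases are known to carry a cell cycle genes homology region (CHR), bound by the LIN54 subunit of the MuvB complex, often beside CCAAT boxes bound by NF-Y. The CHR letters TTTGAA, read on both strands, stood in 81.6% of the members' windows, in 18.1% of windows of all 27025 genes and in 11.1% of windows of tested genes. CCAAT, on both strands, stood in 71.1% of the members' windows, 37.9% of all, 66.7% of other mitotic genes' windows and 65.0% of those of DNA replication and G1/S genes. The letters GCGGGAA, a form of the E2F site of earlier cell cycle genes, stood in 5.26% of the members' windows, 4.66% of all and 8.53% of those of tested genes. GCGGGAA was also read on both strands, matches of different motifs may share letters, and a match is one of letters, not a bound site.

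The CHR and E2F letters were also counted in the lists nearest in function, with no test of the difference. Among 40 windows of DNA replication and G1/S genes, 15.0% held the CHR letters and 40.0% the E2F letters, and among 75 windows of other mitotic genes 41.3% held the CHR letters. Within the 46, the CHR letters stood in 10 of 11 windows of members that fell, in 5 of 6 of those tested without passing and in 16 of 21 of those below the filter. Of 41 matches in 31 members, 32 began within 100 bases before or 50 after the start. The 6 stretches that follow are the 120 bases before the start of the members that fell and hold the CHR letters there. They are a description, in order of p, with CHR and CCAAT letters in capitals, 5′ to 3′ on the gene's strand. A link between these letters and the lower reads was not tested. RefSeq's start can differ from that of the deposited table.
Mki67, chr7:135716380-135716499, minus strand: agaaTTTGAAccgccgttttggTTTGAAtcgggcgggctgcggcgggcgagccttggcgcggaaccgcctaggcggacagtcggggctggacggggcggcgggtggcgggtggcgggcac
Top2a, chr11:99024190-99024309, minus strand: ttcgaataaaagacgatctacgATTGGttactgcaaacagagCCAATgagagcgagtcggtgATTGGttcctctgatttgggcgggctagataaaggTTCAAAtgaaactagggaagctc
Iqgap3, chr3:88081931-88082050, plus strand: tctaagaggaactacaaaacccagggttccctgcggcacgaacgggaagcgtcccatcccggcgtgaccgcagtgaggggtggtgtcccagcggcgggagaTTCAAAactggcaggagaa
Kif11, chr19:37376262-37376381, plus strand: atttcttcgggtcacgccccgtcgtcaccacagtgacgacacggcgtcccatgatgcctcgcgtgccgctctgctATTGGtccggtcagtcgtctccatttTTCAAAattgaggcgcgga
Cdk1, chr10:69352913-69353032, minus strand: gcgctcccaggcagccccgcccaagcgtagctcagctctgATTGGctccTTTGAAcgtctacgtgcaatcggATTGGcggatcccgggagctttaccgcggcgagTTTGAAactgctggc
Ncapg2, chr12:116405316-116405435, plus strand: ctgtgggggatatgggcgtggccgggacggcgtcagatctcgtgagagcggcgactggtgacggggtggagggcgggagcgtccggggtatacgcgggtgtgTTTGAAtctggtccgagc

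Top2a, Kif11 and Cdk1 show both kinds of motif close together, Mki67 carries 2 CHR matches and no CCAAT in this stretch, and Iqgap3 and Ncapg2 carry 1 CHR match just before the start.

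**Figure D2:**
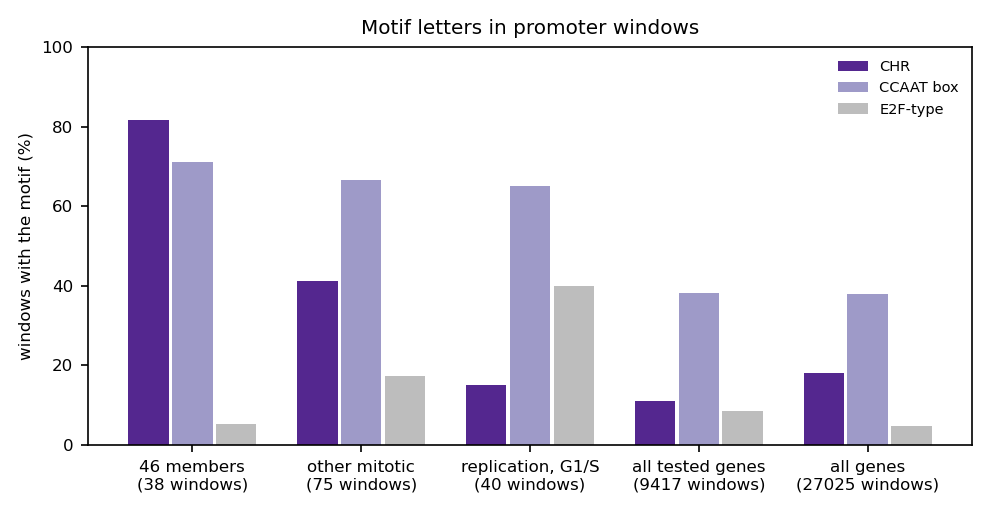
Share of promoter windows (%) that hold the CHR, CCAAT or E2F-type letters, for the 46 members and 4 other sets, with the number of windows in each set under its name. The CHR bar is 81.6% for the members and 18.1% for all genes, and the E2F-type bar is highest, at 40.0%, for replication and G1/S genes.

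Of 7 regulators of mitotic entry 3 were tested and all 3 fell. These 3 were testable only through the ground libraries, so that count is tilted toward lower. Lower calls made up 2.21% of all tested genes. In CPM every partial gravity library lay below every ground library for all 7 regulators, a pattern found in 8.74% of genes with any read. Their summed CPM was 10.8, 14.2 and 12.7 in GC1 to GC3, against 3.72, 2.40 and 3.48 in PG1 to PG3, which is 25.4% of the ground mean. Cdk1, the kinase that starts mitosis (ENSMUSG00000019942, chromosome 10, 69336635 to 69352938), had 11, 17 and 17 ground reads against 5, 1 and 7. It fell by 1.97 on the log2 scale (SE 0.46, adjusted p = 0.013), a call lost without GC2, GC3 or PG2 (adjusted p up to 0.093). Ccna2, cyclin A2, the partner of the cyclin-dependent kinases in S phase and early mitosis (ENSMUSG00000027715, chromosome 3), had 13, 26 and 21 reads against 4, 4 and 5. It was 5.19-fold lower (adjusted p = 9.22e-04), and its exons share 12.5% of their bases with Exosc9 on the other strand. Foxm1, which activates many genes of this module, had 16, 21 and 15 reads against 5, 4 and 5 and was 4.20-fold lower (adjusted p = 0.0027).

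The other 4 regulators had too few reads to be tested. Ccnb1 and Ccnb2 encode the B cyclins that carry Cdk1 through mitosis. Ccnb1 had 5, 12 and 10 reads on the ground (GC1 to GC3) and 4, 0 and 0 in partial gravity (PG1 to PG3), and Ccnb2 had 11, 8 and 9 against 2, 1 and 4. In a fit with no filter on low counts both were lower (adjusted p = 0.0032 and 0.017). Adjusted p-values of the fit with no filter can be far smaller than those of the main fit and are not comparable with them. Plk1, the polo kinase of mitotic entry and exit, had 4, 8 and 6 reads against 3, 2 and 2. Aurka, the Aurora kinase of centrosomes and spindle poles, had 9 in each ground library against 7, 5 and 6. Neither Plk1 nor Aurka passed in that fit (adjusted p = 0.32 and 0.60).

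Genes of chromosome structure had the highest summed CPM of the 7 roles. Of 8, 7 were tested and 5 fell, and their summed CPM was 89.7 ± 7.93 on the ground and 53.7 ± 2.49 in partial gravity. Mki67 encodes Ki-67, which coats mitotic chromosomes and marks cycling cells, and had 105, 158 and 111 reads against 33, 19 and 35. It went from 18.3 ± 3.43 CPM on the ground to 3.66 ± 0.845, or 4.95-fold lower (adjusted p = 6.16e-08). The lowest ground library had 3 times the reads of the highest partial gravity library. Top2a encodes the topoisomerase that untangles sister chromatids, and had 62, 69 and 50 reads against 15, 6 and 6. Its level, 8.92 ± 1.38 CPM on the ground, was 1.14 ± 0.625 in partial gravity. It fell by 2.94 on the log2 scale (SE 0.29, adjusted p = 1.17e-06) and was the member with the largest fold change among those tested.

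Of 6 condensin genes 5 were tested and 3 fell. Condensin I and II share the ATPases Smc2 and Smc4, and differ in the other subunits, Ncaph, Ncapg and Ncapd2 in condensin I and Ncapg2 in condensin II. Ncaph, the subunit that closes the ring of condensin I, had 16, 18 and 16 reads against 6, 7 and 3, and was 3.54-fold lower (adjusted p = 0.0089; 0.058 without GC2 and 0.062 without PG3). Ncapg2 had 39, 37 and 44 reads against 14, 27 and 31, at 1.92-fold lower (adjusted p = 0.038), and lost the call without any library but PG3, at up to 0.19. Ncapg had 8, 12 and 8 reads against 4, 0 and 2, too few for the filter, and was lower without it (adjusted p = 0.0095).

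The shared ATPases did not pass, and Ncapd2 did. Smc4 had 103, 153 and 139 reads against 186, 133 and 161, at 0.074 on the log2 scale (SE 0.13, adjusted p = 0.85), and its sign turned without GC1 or PG1. Smc2 had 47, 51 and 38 reads against 44, 37 and 31, with a log2 fold change of -0.49 that did not pass (SE 0.21, adjusted p = 0.26). Ncapd2 had 167, 203 and 172 reads against 153, 146 and 161 and passed at 1.36-fold lower (adjusted p = 0.017; up to 0.13 without GC2, PG1 or PG3). Only 41.0% of its exon reads were placed uniquely, and when all exon reads were counted its log2 fold change was -0.10 and it did not pass (adjusted p = 0.61). Per exon length, Ncapd2, Smc4 and Cenpf were the 3 most abundant members on the ground, at 4.21 ± 0.228, 1.69 ± 0.251 and 1.51 ± 0.303 of the deposited RPKM, ahead of Mki67 at 0.833 ± 0.171. In partial gravity these 3 stood at 4.27 ± 0.310, 1.94 ± 0.230 and 1.56 ± 0.621, so by RPKM Ncapd2 was not lower.

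Because these 3 genes took 41.8% of the members' CPM on the ground and 65.6% in partial gravity, they set much of the total. The other 43 members, a set chosen after values were seen and given as a description, summed to 107, 133 and 109 CPM in GC1 to GC3 and to 42.8, 38.7 and 37.7 in PG1 to PG3, a ratio of 2.93.

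**Figure D3:**
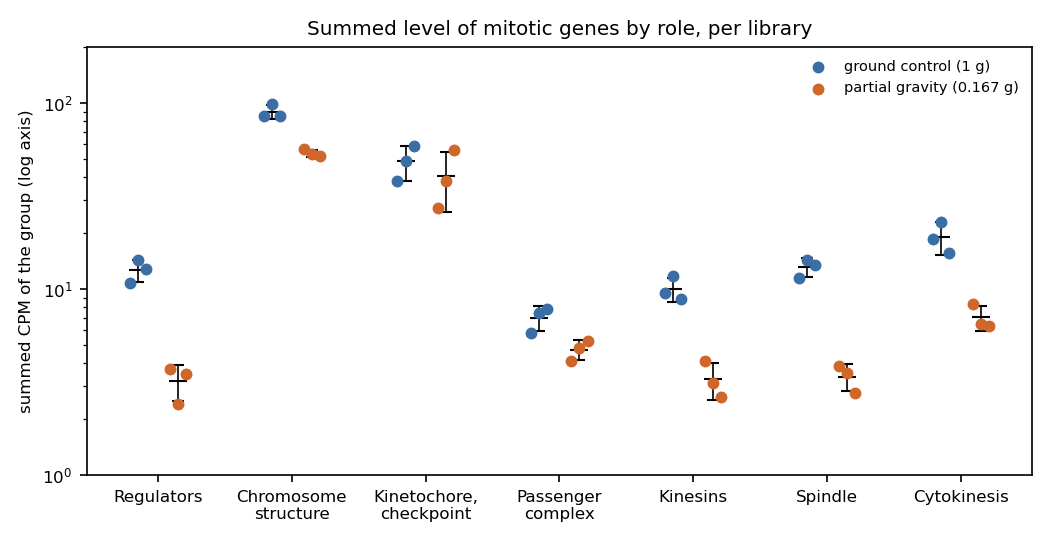
Summed CPM (log axis) of the members in each of 7 roles, with 1 point per library and bars for the mean ± SD of 3 libraries. Ground control and partial gravity libraries do not overlap for regulators, chromosome structure, passenger complex, kinesins, spindle and cytokinesis genes, and overlap for kinetochore and checkpoint genes, a group led by Cenpf.

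Kinetochore and checkpoint genes had 9 members, of which 3 were tested and 0 passed by edgeR, DESeq2 or limma voom, with 1 at an unadjusted p under 0.05. Their summed CPM overlapped, at 37.9 to 58.7 on the ground and 27.2 to 55.6 in partial gravity. Cenpf, a large protein of the outer kinetochore, gave most of this sum. It had 196, 253 and 319 reads against 184, 236 and 428, at -0.069 on the log2 scale (SE 0.37, adjusted p = 0.96), and its sign turned without GC3 or PG1. Its libraries spread more within the partial gravity group than between the groups.

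The other 8 kinetochore and checkpoint genes had at most 27 reads in a library. Bub1, a kinase of the spindle checkpoint, had 7, 7 and 5 reads in GC1 to GC3 and none in any partial gravity library. With a floor of 3 reads set in place of the 0 of that group, Bub1 was 7.32-fold lower. This value depends on the floor chosen and leaves out the counting error of its 19 ground reads. Cenpe, the kinetochore motor that brings chromosomes to the spindle's middle, had 9, 26 and 12 reads against 3, 0 and 6, and was lower in the fit with no filter (adjusted p = 9.72e-05). Bub1b, which encodes the checkpoint protein BubR1, had 11, 25 and 27 reads against 9, 11 and 14 (adjusted p = 0.090, or 0.045 with no filter). Cdc20, the activator of the anaphase-promoting complex, had 6, 14 and 19 reads against 10, 10 and 5, and its groups overlapped. Ube2c, the ubiquitin-conjugating enzyme of that complex, had 4, 10 and 5 reads against 2, 2 and 1. Nuf2, Ndc80 and Spc25 are subunits of the NDC80 complex, which grips microtubules, and had at most 11 reads in any library. Nuf2 and Ndc80 had 13 and 12 reads on the ground and 3 and 4 in partial gravity. Spc25 went the other way, with 4, 3 and 4 reads against 8, 11 and 5, and did not pass with no filter (adjusted p = 0.60).

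The chromosomal passenger complex joins Aurora kinase B to the scaffold Incenp and to survivin, the product of Birc5, and corrects faulty attachments. Incenp, the 1 member tested, had 30, 40 and 36 reads against 31, 31 and 42 and did not pass (log2 fold change -0.23, SE 0.22, adjusted p = 0.69). Birc5 had 4, 7 and 13 reads against 1, 3 and 0, and Aurkb had 3, 6 and 4 against 1, 0 and 2. With no filter Birc5 was lower (adjusted p = 0.011) and Aurkb did not pass (adjusted p = 0.23). In CPM the groups overlapped for Incenp and did not for Birc5 and Aurkb.

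In CPM, for all 7 kinesins, the microtubule motors that build the spindle and move chromosomes, every partial gravity library lay below every ground library. Their summed CPM was 9.55, 11.7 and 8.79 in GC1 to GC3, against 4.09, 3.11 and 2.64 in PG1 to PG3, or 32.8% of the ground mean. Kif11, the motor that pushes spindle poles apart, had 21, 20 and 18 reads against 8, 2 and 6. It was the 1 kinesin of this group with enough reads to be tested (4.19-fold lower, adjusted p = 0.0027). Kif11 was testable only through the ground libraries. Kif18b, which trims microtubule ends, had 4, 5 and 3 reads against none, with 60.0% of its exon reads unique. It was 4.62-fold lower on the floor used for Bub1, a value that again depends on that floor and leaves out the counting error of its ground reads. With no filter Kif18b was lower (adjusted p = 0.015), and Kif22, a motor on chromosome arms, was close to the threshold (adjusted p = 0.051). Kif22 had 13, 13 and 7 reads against 4 in each partial gravity library. Kif15 and Kif20b, motors of spindle upkeep and of late mitosis, had 8, 11 and 7 reads against 7, 7 and 3, and 9, 17 and 10 against 8, 4 and 6. Kif4, a chromosome arm and midzone motor, had 5, 12 and 5 reads against 5, 4 and 2, and Kif2c, which takes microtubules apart at centromeres, had 1, 5 and 10 against 1 in each. None of these 4 passed with no filter (adjusted p from 0.10 to 0.60).

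Spindle genes had 5 members, of which 3 were tested and 2 fell. The 2 that fell were testable only through the ground libraries. Aspm, which focuses the spindle poles (ENSMUSG00000033952, chromosome 1, 139454772 to 139494091), had 29, 36 and 39 reads against 10, 2 and 7. Its level, 5.11 ± 0.587 CPM on the ground, was 0.788 ± 0.481 in partial gravity, at 6.22-fold lower (adjusted p = 4.60e-05). Tpx2, the activator of Aurora kinase A, had 16, 19 and 19 reads against 3, 9 and 9 (2.93-fold lower, adjusted p = 0.022), and lost the call without GC1, GC2, GC3 or PG1, at up to 0.12. Nusap1, which bundles spindle microtubules, had 10, 20 and 17 reads against 9, 13 and 6 and overlapped (adjusted p = 0.22). Hmmr, a spindle-pole protein that also serves as a hyaluronan receptor, had 6, 16 and 12 reads against 3, 0 and 0, and Dlgap5, a microtubule-binding factor of spindle assembly, had 12, 11 and 5 against 6, 1 and 1. Both were below the filter, and both were lower without it (adjusted p = 4.67e-05 and 0.032).

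Cytokinesis genes act at the spindle's midzone and the cleavage furrow, and 3 of 5 tested members fell. All 3 needed the ground libraries to be tested. Iqgap3, a scaffold of the actin cortex in dividing cells, had 18, 22 and 26 reads against 4, 2 and 5. It was 6.73-fold lower (adjusted p = 1.74e-04). Kif23, a motor subunit of centralspindlin, had 20, 27 and 13 reads against 10, 9 and 6, at 2.74-fold lower (adjusted p = 0.024; up to 0.21 without GC1, GC2, PG2 or PG3). Anln, anillin of the contractile ring, had 21, 34 and 27 reads against 15, 17 and 11, at 2.18-fold lower (adjusted p = 0.030; up to 0.20 without GC2, GC3, PG1 or PG3).

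The remaining cytokinesis genes did not pass or were too low. Racgap1, the GTPase-activating partner of Kif23, had 16, 28 and 12 reads against 13, 5 and 10 (adjusted p = 0.087, or 0.040 with no filter). Kif20a, a midzone motor that shares 29.3% of its exon bases with Cdc23 on the other strand, had 20, 20 and 9 reads against 13, 8 and 14 and overlapped. Prc1, which crosslinks midzone microtubules, had 12, 22 and 7 reads against 7, 2 and 3, and only 34.0% of its exon reads were unique. Ect2, the exchange factor that sets up the furrow, had 12, 10 and 12 reads against 5, 3 and 4. With no filter Prc1 and Ect2 were lower (adjusted p = 0.0054 and 0.038).

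**Figure D4:**
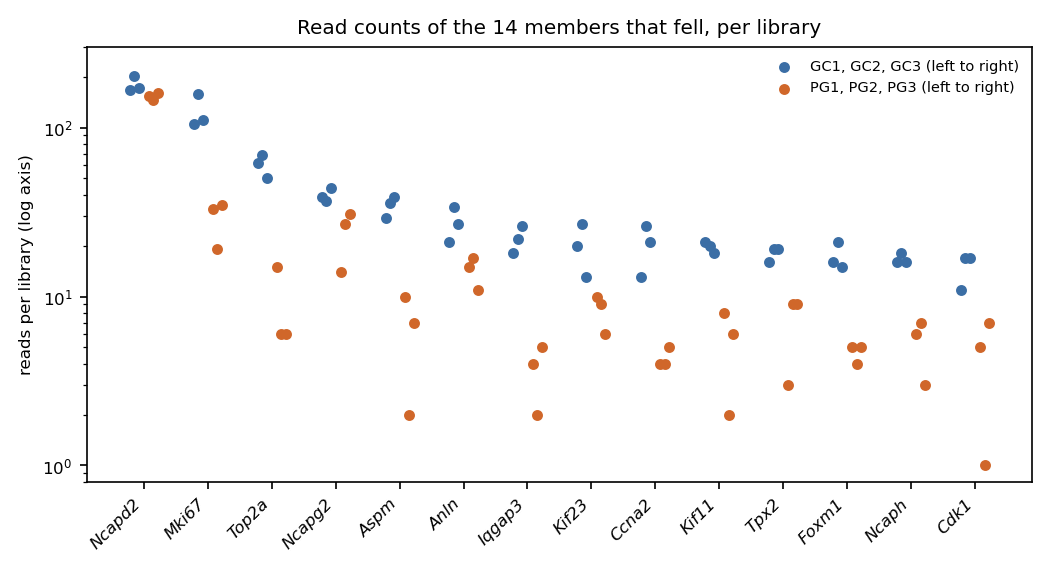
Reads per library (log axis) of the 14 members that fell, ordered by their mean CPM on the ground, with GC1 to GC3 left and PG1 to PG3 right for each gene. The Mki67 libraries lie at 105 to 158 against 19 to 35, and below Mki67 and Ncapd2 no library exceeds 69 reads.

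Over the 46 in the fit with no filter, 27 were lower and 0 higher, where 2.34% of 19222 genes were lower and 1.64% higher. These 27 were the 14 above, Bub1b, Racgap1 and 11 of the 23 members below the filter. At nearly the same log2 fold change that edgeR fit gave Mki67 an adjusted p of 1.71e-34, against 6.16e-08 with the filter. Its calls are therefore not of equal weight to those of the main fit. Bub1b and Racgap1 did not pass in edgeR with a filter at 1 CPM (adjusted p = 0.089 and 0.087). The 23 below the filter had 1 to 26 reads per ground library and 0 to 11 per partial gravity library. As a group they summed to 24.3, 33.8 and 25.3 CPM in GC1 to GC3, against 10.4, 7.07 and 6.72 in PG1 to PG3. At such counts a single read moves a value by much, and no member had 0 reads in a ground library while 10 had 0 in at least 1 partial gravity library.

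**Figure D5:**
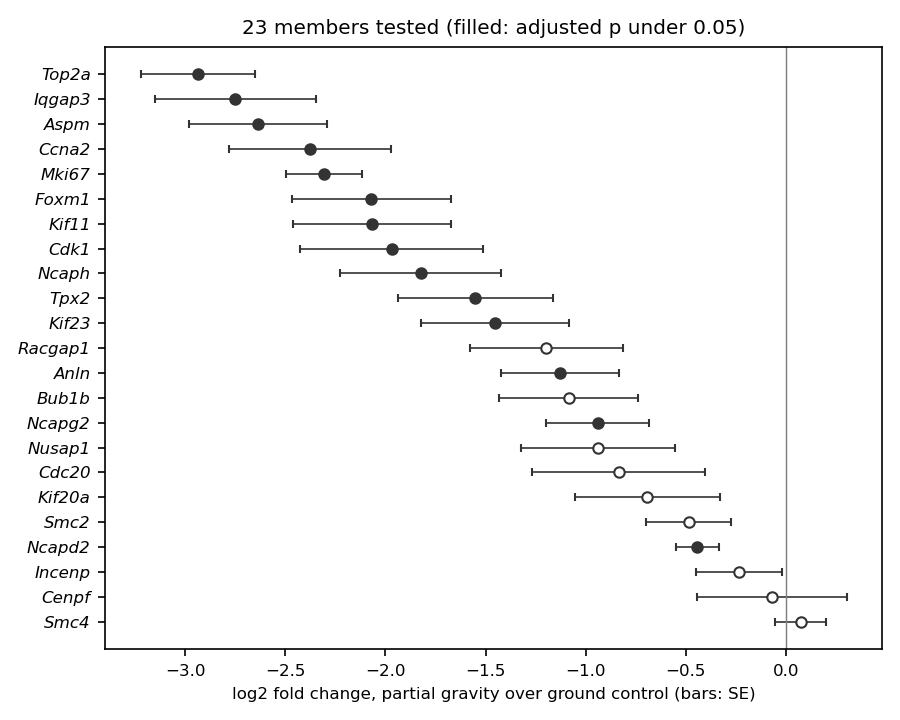
Log2 fold change of the 23 tested members, partial gravity over ground control, with SE bars, filled where the adjusted p was under 0.05. Values run from -2.94 (Top2a) to 0.074 (Smc4), and the 14 filled points all lie below 0.

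Other read classes of the same libraries were also lower. Unique reads across exon-exon junctions of the members, which come from spliced RNA, numbered 319, 453 and 312 against 239, 182 and 231, or 205 to 287 against 117 to 139 per 1000000 junction reads. Unique intron reads, which come mostly from unspliced RNA, numbered 507, 662 and 644 against 420, 320 and 399, or 106 to 130.0 against 74.4 to 80.3 per 1000000 intron reads. Neither class overlapped between the groups. In an edgeR fit of intron reads alone, added after the data were seen, 20 members were tested and 5 were lower (Kif23, Tpx2, Anln, Kif20b and Mki67) and 0 higher, where 2.50% of genes were lower and 0.359% higher. The log2 fold changes of the 5 ran from -2.04 to -1.81, and 4 of the 5 also fell in exon reads. Kif20b, a motor of late mitosis too low in exon reads to be tested, had 14, 20 and 14 intron reads against 4, 7 and 3.

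Of 93 other mitotic genes 44 were tested, 2 fell and 0 rose (2.21% and 1.56% of all tested genes), with a median log2 fold change of -0.058. These 2 were Tacc3, which stabilises spindle microtubules, at 2.93-fold lower (adjusted p = 0.024), and Gas2l3, a cytoskeletal linker of the midzone, at 1.82-fold lower (adjusted p = 0.027). Over all 92 with any read the median was -0.34 with no filter, and 70 of the 93 had a lower mean CPM (51.1% of all genes with any read). For 33 every partial gravity library lay below every ground library, and for 3 above (8.74% and 7.35% of genes with any read). The list's summed CPM did not overlap, at 1285 to 1300.4 on the ground and 1240.1 to 1259 in partial gravity. With no filter 11 of 92 were lower and 0 higher (2.34% and 1.64% of all genes with any read). Among the 11 were the kinetochore genes Kntc1 and Knl1, the kinases Pbk and Nek2, and the motor gene Kifc1. These examples were chosen after their values were seen. Knl1 had 14, 9 and 16 reads against 2, 4 and 1, and Kntc1 had 14, 9 and 9 against 1, 0 and 0. Of 50 DNA replication and G1/S genes 37 were tested, 2 fell and 0 rose (2.21% and 1.56% of all tested genes), with a median of -0.11. The 2 were Uhrf1, which keeps DNA methylation through replication, and Rrm2, the regulated subunit of ribonucleotide reductase. With no filter the median was -0.26, and 2 of 49 were lower and 0 higher. The groups did not overlap toward lower for 7 of the 50 and toward higher for 1 (8.74% and 7.35% of genes with any read). The difference between these lists and the 46 was not tested.

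Marker genes of cell types that the heart can hold were read in the same libraries. Summed CPM of 10 endothelial markers was 1516 to 1590 on the ground and 1449 to 1670 in partial gravity, and that of 9 macrophage markers was 353 to 369 against 318 to 376. In both lists 0 members passed by edgeR, DESeq2 or limma voom (3 and 1 at an unadjusted p under 0.05), though 1 endothelial marker was lower with no filter. Of 9 fibroblast markers the collagens Col3a1 and Col1a1 fell (log2 fold changes -0.49 and -0.24), while the sums overlapped, at 2530 to 2592 against 2440 to 2635 CPM. Of 7 mural cell markers Rgs5 and Tagln rose and Acta2 fell, and the sums were 1217 to 1242 against 1319 to 1453. Of 8 cardiomyocyte markers Myh6 and Ryr2 fell and Pln rose, with sums of 51331 to 52872 against 42181 to 46507. Over all tested genes 2.21% were called lower and 1.56% higher. The sums of 5 epicardial markers (12.1 to 16.0 against 10.8 to 17.4 CPM) and of 4 Schwann cell markers (7.83 to 8.94 against 8.34 to 10.1) overlapped, with 0 passing by edgeR, DESeq2 or limma voom and 0 at an unadjusted p under 0.05. Tissue identity matched the label, since cardiomyocyte markers were the most abundant of these lists in every library.

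Lymphocyte and thymocyte markers were low, and those of erythroid and myeloid precursors were mixed. The 9 lymphocyte markers summed to 2.66 to 6.35 CPM on the ground and 1.99 to 4.44 in partial gravity, and none reached the filter. Of 6 thymocyte markers 4, Rag1, Rag2, Ptcra and Dntt, had no read in any library. Of 8 erythroid and myeloid precursor markers Elane and Mpo had no read, and the list summed to 116 to 130.0 CPM on the ground against 65.5, 61.5 and 121 in PG1 to PG3, most of it from the transferrin receptor Tfrc (590, 657 and 632 reads against 333, 295 and 731). In that list Alas2 had 125, 182 and 113 reads against 113, 93 and 223, and Kit had 40, 76 and 39 against 74, 46 and 48. Neither passed by edgeR (adjusted p = 0.87 and 0.91). The part of cell composition in the lower mitotic reads was not tested.

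The header of the deposited table places GC3 under PG, against its name and title, and the grouping by title was used throughout. With GC3 moved as the header has it, 0 of 31 tested members passed by edgeR, with 14 at an unadjusted p under 0.05, where 0.216% of genes were lower and 0.0399% higher. In the authors' deposited table, whose comparison sets 2 libraries against 4, the fold was negative for 42 of the 46 and the adjusted p was under 0.05 for 2, Prc1 (adjusted p = 0.0035) and Kif23 (0.012).

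The 14 calls differed in how firmly they stood. Mki67, Top2a, Aspm, Iqgap3, Ccna2, Kif11 and Foxm1 passed with any 1 library left out, the largest adjusted p being 0.035. Of these, only Mki67 reached the level of the low-count filter in every library. Top2a reached it in 1 partial gravity library, and Aspm, Iqgap3, Ccna2, Kif11 and Foxm1 in none. All but Mki67 thus needed the ground libraries to be tested. The other 7 lost the call without GC2, where 7 of 24 tested members fell, with 1.06% of all genes lower and 0.700% higher in that fit.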

How the data were processed

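The authors deposited 1 table of 49585 genes. Its expression values are whole read counts per gene, and its unique, junction, intron and total exon reads are counts too, per the file headers. The deposited RPKM is scaled to exon length and library size, per the file headers. It was used only to order levels between genes and to describe Ncapd2, Smc4 and Cenpf in both groups. The authors' deposited p-values and signed fold (a score) come from an EDGE test, per the file headers. Per the submitters' processing notes, the build is named GRCm38 and mm10; not given in the sources used here are aligner, counter and strand use. Deposited starts count from 0, so 1 was added; 41 of the 46 then had the coordinates of GENCODE M21.

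Libraries were grouped by title. Genes passing filterByExpr (minimum count 10) were fitted with TMM factors in edgeR 4.0.16 (robust quasi-likelihood test, R 4.3.3), adjusted over all 12258 tested genes by Benjamini-Hochberg, and called at an adjusted p under 0.05. Total counts were 6461213 to 8271553 per library, so counting error is large for members under 10 reads. The labels do not say that libraries are separate mice, so the p-values rest on a spread among libraries that may be technical. Members and lists were chosen with earlier results of these data known; genes named were every member and, of other lists, those called (up to 8 by p). Sums, medians and motif shares got no test. Alternatives used DESeq2 1.42.0, limma voom 3.58.1, other scalings, filters and read columns, an exon length correction (loess span 0.5), a replicate block, the header's grouping and each library left out. The fit was tested on simulated data. Without strand, reads of overlapping genes on opposite strands cannot be told apart; 13 members share exon bases with another gene.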

Additional observations from a re-analysis of the deposited data

How the results depend on the processing

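The count of 14 lower members was 14 with RLE, upper quartile or library-total scaling, limma voom, unique exon reads, the length trend removed, and the replicate block with or without that correction, and 13 to 19 with the non-robust fit, total exon reads or a 1 CPM filter. It was 27 with no filter, 7 with DESeq2 without independent filtering, 1 with DESeq2, whose filter left 2 of the 23 with an adjusted p, 5 with intron reads and 0 under the header's grouping. It ranged from 7 to 15 with each library left out. No alternative called a member higher.

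Other mitotic genes lower, 2 with all libraries, were 11 with no filter, 5 with the 1 CPM filter, 1 with intron reads, 0 with either DESeq2 fit or the header's grouping, and 1 to 3 with each library left out. Replication genes lower, also 2, were 0 with either DESeq2 fit, intron reads or the header's grouping, and 0 to 1 with each library left out. The log2 ratio of summed member CPM, -0.79, was -0.64 with total exon reads and -0.54 under the header's grouping. The cause of these moves was not tested.

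All 281 refitted values of the 14 members stayed below 0, and 49 of them lost the call. The only reversals were in Smc4 (-0.037 without GC1, -0.024 without PG1) and Cenpf (0.21 under the header's grouping, 0.12 without GC3, 0.18 without PG1), none called. With 1 library left out, Smc4 ranged from -0.037 to 0.16 and Cenpf from -0.44 to 0.18. Replicate numbers did not pair the libraries: correlations of same-numbered deviations were 0.0026, -0.054 and 0.048, and the block left the count at 14, which is a hint from the data and not the design.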
